A study of Mus musculus with 15 samples.

Results

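The genes of fatty acid synthesis were described in mouse mammary tumors driven by Erbb2, with or without floxed alleles of Ctnnb1, the gene of beta-catenin. They were taken from a list of 10 lipogenic genes, namely Fasn, Acaca, Acacb, Scd1, Scd2, Elovl6, Srebf1, Me1, Acss2 and Thrsp. A gene was read from the array's transcript clusters that name a single gene, the brightest where there were several. By this rule 9 of the 10 genes had a value. Scd2 had none, because its only cluster also lists Mir5114, and Scd2 is not analysed here. All 9 were among the 14243 genes tested, out of 22180 genes with such a cluster. A gene was tested when it lay above the array's median on at least 5 of the 15 arrays. Fasn, Acaca, Scd1, Elovl6, Srebf1, Me1, Acss2 and Thrsp did so on all 15, and Acacb, the dimmest against its arrays, on 11. Acly, which makes cytosolic acetyl-CoA from citrate, and the oncogene Erbb2 were followed as references only.

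Whole-transcript Affymetrix arrays were run on total RNA of frozen end-burden mammary tumors, 1 array per tumor. All mice carried the ErbB2KI allele. The groups were Ctnnb1 fl/fl (HOM), Ctnnb1 fl/wt (HET) and Ctnnb1 wt/wt (WT), with 5 tumors each. Deletion was meant to take place in the mammary epithelium only, while the labels name no Cre line, strain or age. They also do not state 1 tumor per mouse, so each p-value reflects only how these tumors varied. Whole tumors also hold stromal cells, and on bulk RNA fewer cells of a type and less RNA per cell cannot be told apart.

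The Ctnnb1 level itself went against the label in a pair of tumors. The tumor labelled HOM 5 had a Ctnnb1 level of 12.01, against 11.15 to 11.58 in HOM 1 to HOM 4, and the tumor labelled WT 5 had 11.22, against 11.71 to 12.10 in WT 1 to WT 4. Several results, though not all, are also given without these tumors. Epcam and Krt8, markers of epithelium, were bright in nearly all tumors (Krt8 from 11.64 to 12.60), with Epcam at 9.31 in HET 1 and from 11.38 to 12.31 in the other 14 tumors. Ckm, a skeletal muscle marker, was 11.24 in HET 3 and at most 6.04 elsewhere. Array medians lay between 5.54 and 5.73.

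De novo lipogenesis turns cytosolic acetyl-CoA into saturated fatty acids. Acetyl-CoA carboxylase makes malonyl-CoA, fatty acid synthase builds palmitate from it with NADPH, and an elongase and a desaturase extend and desaturate the product. The transcription factor SREBP-1, made from Srebf1, raises most of these genes, and the pathway is known for its high activity in the lactating mammary gland and in many Erbb2-driven breast cancers. Cells outside the tumor epithelium, above all fat cells, express the pathway too.

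Promoter windows of RefSeq genes on build GRCm38.p6, from 250 bases before to 50 bases after a start site, were found for 8 of the 10 genes, in 11 windows since Me1 and Srebf1 have several starts. The windows shown are those with a CCAAT box for Fasn, the enzyme at the centre of the pathway, and for Srebf1 and Thrsp, the pair of genes with the highest correlation over tumors below. Each is written 5′ to 3′ on the gene's strand, with the letters of CCAAT, or of its reverse complement ATTGG, in capitals.
Fasn, chr11:120824498-120824797, minus strand: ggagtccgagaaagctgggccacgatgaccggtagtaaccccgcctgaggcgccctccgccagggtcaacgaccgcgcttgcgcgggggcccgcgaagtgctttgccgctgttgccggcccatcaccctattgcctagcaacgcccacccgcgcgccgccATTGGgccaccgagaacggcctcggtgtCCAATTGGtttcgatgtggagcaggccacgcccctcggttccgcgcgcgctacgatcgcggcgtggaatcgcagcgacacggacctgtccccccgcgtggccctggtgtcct
Srebf1, chr11:60222532-60222831, minus strand: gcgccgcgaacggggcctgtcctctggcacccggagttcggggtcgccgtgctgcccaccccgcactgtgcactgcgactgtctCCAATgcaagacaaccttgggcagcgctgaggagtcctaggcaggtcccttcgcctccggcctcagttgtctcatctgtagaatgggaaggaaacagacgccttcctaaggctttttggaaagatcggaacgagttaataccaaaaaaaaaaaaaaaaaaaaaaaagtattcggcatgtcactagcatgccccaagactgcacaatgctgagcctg
Srebf1, chr11:60210422-60210721, minus strand: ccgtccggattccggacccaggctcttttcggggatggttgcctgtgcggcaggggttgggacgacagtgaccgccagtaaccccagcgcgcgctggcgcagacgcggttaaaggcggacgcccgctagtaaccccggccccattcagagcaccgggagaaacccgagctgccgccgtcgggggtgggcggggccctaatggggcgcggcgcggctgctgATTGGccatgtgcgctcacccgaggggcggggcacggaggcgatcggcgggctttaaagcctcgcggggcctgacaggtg
Thrsp, chr7:97417501-97417800, minus strand: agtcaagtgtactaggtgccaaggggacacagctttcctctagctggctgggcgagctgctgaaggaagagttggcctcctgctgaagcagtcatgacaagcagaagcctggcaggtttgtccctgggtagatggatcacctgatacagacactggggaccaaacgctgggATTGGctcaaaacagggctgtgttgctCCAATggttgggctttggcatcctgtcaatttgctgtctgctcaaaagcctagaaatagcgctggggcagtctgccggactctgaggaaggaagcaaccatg
The letters CCAAT, searched on both strands, stood in 7 of the 11 windows (Acacb, Acss2, Fasn, Me1, Srebf1 and Thrsp), against 37.4% of all 32851 promoter windows. The Fasn window held 3, of which a pair overlap in the run CCAATTGG. The GC box GGGCGG was in 4 windows (35.7% of all windows). The E-box CACGTG and the sterol element letters TCACNCCAC were in 0 of the 11, against 7.15% and 1.24% of all windows. These matches are descriptions of letters in a short window, and binding was not measured.

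No gene of the list passed the test between genotypes, and the lowest p belonged to Srebf1, which had lower values in HET tumors than in the others. Srebf1 encodes the precursors of SREBP-1a and SREBP-1c. Its log2 level was 10.02, 9.31, 9.39, 9.51 and 9.38 in HOM 1 to HOM 5, then 8.41, 8.48, 9.25, 8.09 and 8.82 in HET 1 to HET 5, and 10.67, 10.07, 9.26, 9.85 and 9.43 in WT 1 to WT 5. The 5 HET tumors were thus below every HOM and every WT tumor, with HET 3 closest. Of all tested genes, 1.05% lay lower in every HET tumor than in every WT tumor, and Srebf1 was the only one of the 9 genes in this state. Means were 8.61 ± 0.44 in HET and 9.86 ± 0.56 in WT (SD, n = 5 each), a log2 difference of -1.25 (95% interval -1.82 to -0.68), or 2.38-fold lower. In the limma fit across all genes it had an adjusted p = 0.206 (Benjamini-Hochberg over 14243 genes). Without HET 3 the difference was -1.41 and the adjusted p = 0.0454, the 1 setting of 27 in which Srebf1 passed, and adjusted p lay between 0.0454 and 0.496 over all of them. Without WT 5 and HOM 5 the difference was -1.35 (adjusted p = 0.151).

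HOM tumors had a Srebf1 mean of 9.52 ± 0.29, which was 0.91 above HET on the log2 scale (interval 0.34 to 1.48, adjusted p = 0.587). A gap of this kind, every HOM tumor above every HET tumor, was seen in 0.611% of tested genes. HOM and WT differed in Srebf1 by -0.34 (interval -0.91 to 0.23, adjusted p rounding to 1), and their tumors overlapped. This difference was -0.13 without WT 1 and -0.13 with array weights. The same 5 HET tumors enter the differences from HOM and from WT, so these are not independent of each other.

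Thrsp encodes Spot 14, a nuclear and cytosolic protein that promotes lipogenesis in liver, fat and mammary gland. It varied more than any other gene of the list, by 39.4-fold between tumors, with an SD of 1.48 over 15 tumors that was higher than that of 98.3% of tested genes. Thrsp was 8.91, 8.24, 8.74, 8.04 and 8.96 in HOM 1 to HOM 5. In HET 1 to HET 5 it was 6.64, 5.68, 8.93, 6.57 and 7.78, and in WT 1 to WT 5 it was 10.98, 9.42, 6.29, 6.06 and 8.58. The HOM tumors sat close together, whereas WT tumors spread from well below to well above them, so the genotypes overlapped. HET differed from WT by -1.15 (interval -2.94 to 0.64, adjusted p = 0.556), by -0.47 without WT 1 and by -0.23 with a pan-leukocyte marker mean as a covariate. HOM differed from HET by 1.46 (interval -0.33 to 3.25, adjusted p = 0.672), and from WT by 0.31 (adjusted p rounding to 1), a difference that was -0.24 without WT 4 and 0.99 without WT 1.

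**Figure D1:**
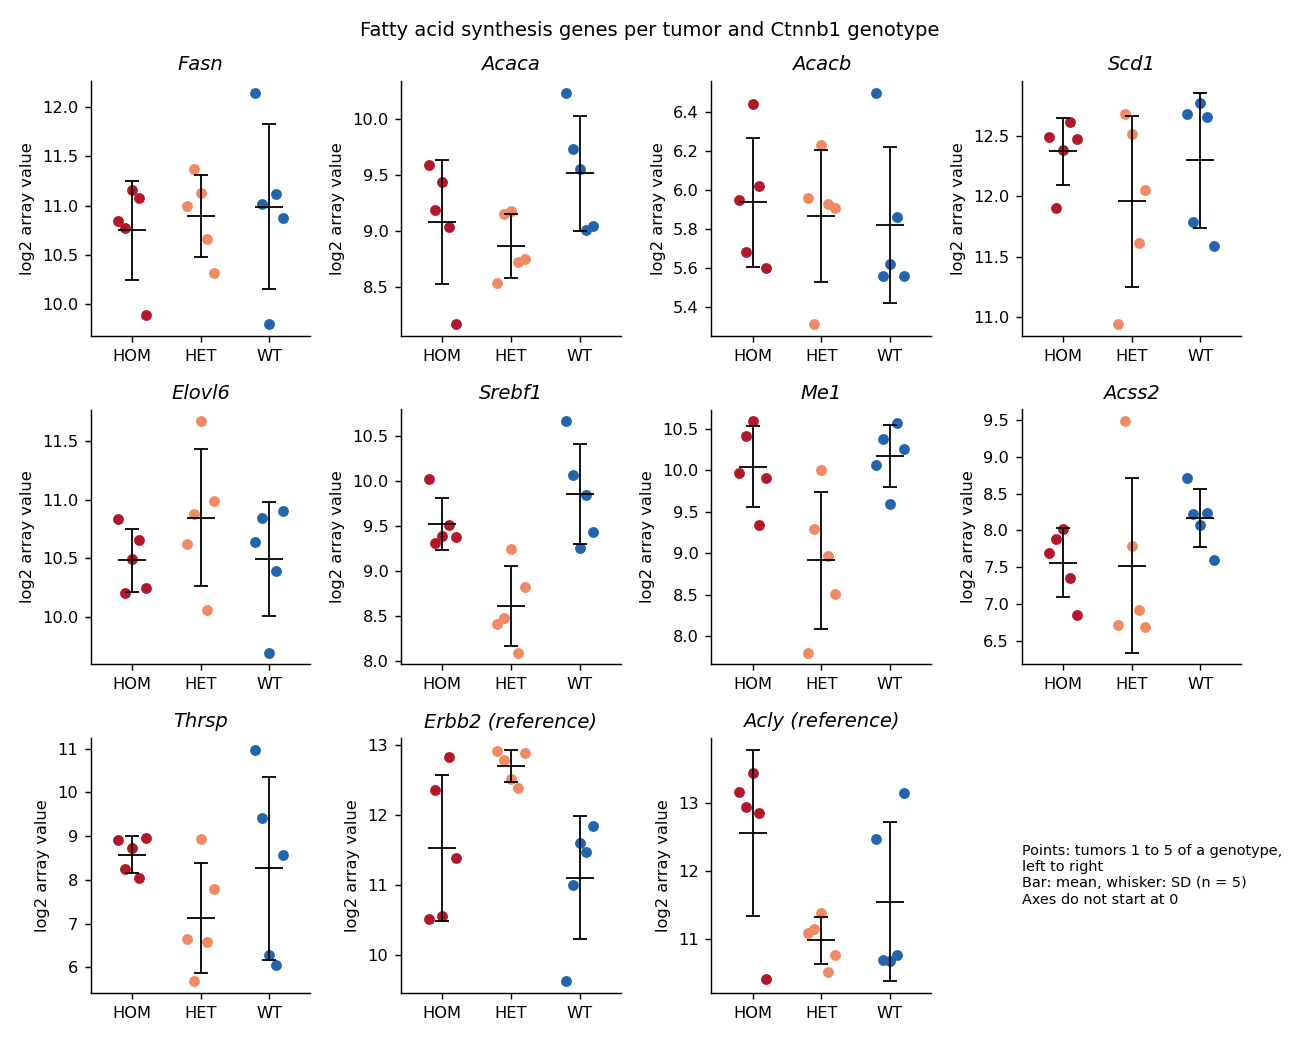
Log2 array value (vertical axes, not starting at 0) of the 9 fatty acid synthesis genes and of the references Erbb2 and Acly in HOM, HET and WT tumors. Points are tumors 1 to 5 from left to right, the long bar is the mean and the whisker the SD of 5 tumors. All 5 HET tumors lie below all others in Srebf1, and Thrsp spreads widely in WT.

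Of the enzymes that supply carbon and reducing power, Me1, the cytosolic malic enzyme that yields NADPH for the synthase, had a difference between HET and WT of about the size of that of Srebf1. Its level was 9.96, 10.41, 10.59, 9.34 and 9.90 in HOM 1 to HOM 5, 7.80, 9.29, 9.996, 8.97 and 8.51 in HET 1 to HET 5, and 10.06, 10.37, 9.59, 10.57 and 10.26 in WT 1 to WT 5. In HET 1, HET 2, HET 4 and HET 5 Me1 was below every HOM and WT tumor, and HET 3 lay among them. Means were 8.91 ± 0.82 in HET and 10.17 ± 0.37 in WT, a difference of -1.26 (interval -2.01 to -0.50, adjusted p = 0.224 in limma). This difference was -1.53 without HET 3 (adjusted p = 0.0617) and -0.98 without HET 1. It was -1.23 without WT 5 and HOM 5 (adjusted p = 0.228). HOM, at 10.04 ± 0.49, stood 1.13 above HET (interval 0.37 to 1.88, adjusted p = 0.587) and differed from WT by -0.13 (interval -0.88 to 0.62). Neither passed the test.

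Acss2 makes acetyl-CoA from acetate. HET 2 stood alone at 9.48, the highest of all 15 tumors, while the other HET tumors had 6.72, 7.79, 6.93 and 6.70. HOM tumors lay between 6.86 and 8.02 and WT tumors between 7.60 and 8.71, so that HET 1, HET 4 and HET 5 were below all WT tumors and HET 2 above them. The mean was 7.56 ± 0.47 in HOM, 7.52 ± 1.18 in HET and 8.17 ± 0.40 in WT. HET differed from WT by -0.65 (interval -1.61 to 0.32, adjusted p = 0.538), by -1.13 without HET 2 and by -0.17 with array weights. It was -0.43 with a mean of epithelial markers and -0.38 with the pan-leukocyte mean as a covariate. HOM differed from WT by -0.61 (interval -1.57 to 0.36, adjusted p rounding to 1).

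Acly split the tumors into a high and a low set. It was 13.15, 12.94, 13.44, 12.85 and 10.42 in HOM 1 to HOM 5, 11.09, 11.15, 11.38, 10.52 and 10.76 in HET 1 to HET 5, and 12.46, 10.69, 10.68, 10.77 and 13.14 in WT 1 to WT 5. HOM 1 to HOM 4, WT 1 and WT 5 thus formed a high set apart from the other 9 tumors, so a correlation with Acly over all tumors also reflects these sets. Pearson's r of the 9 genes with Acly lay between 0.076 for Scd1 and 0.45 for Thrsp, and none passed (adjusted permutation p at least 0.287). On deviations from genotype means r lay between -0.14 for Scd1 and 0.62 for Fasn. Within HOM and within WT these deviations still held tumors of both sets. Inside the high set (n = 6) r lay between -0.68 for Fasn and 0.46 for Me1. Inside the low set (n = 9) it lay between -0.17 for Srebf1 and 0.74 for Elovl6, with Fasn at 0.67. The sign for Fasn thus differed between the sets.

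Acetyl-CoA carboxylase exists as Acaca, the cytosolic form that feeds synthesis, and Acacb, the form at mitochondria that restrains fatty acid oxidation. Acaca was 9.59, 9.19, 9.44, 9.04 and 8.17 in HOM 1 to HOM 5, 8.54, 9.16, 9.18, 8.73 and 8.75 in HET 1 to HET 5, and 10.24, 9.74, 9.56, 9.01 and 9.05 in WT 1 to WT 5. HET 1, HET 4 and HET 5 were below all WT tumors, and HET 2 and HET 3 were just above the lowest WT tumors. HET and WT differed by -0.65 (8.87 ± 0.28 and 9.52 ± 0.52, interval -1.25 to -0.0451, adjusted p = 0.348 in limma). This difference was -0.76 without WT 5 and HOM 5 (adjusted p = 0.214) and -0.46 without WT 1. HOM, at 9.09 ± 0.56, differed from WT by -0.43 (interval -1.03 to 0.17), by -0.20 without HOM 5, its lowest tumor, by -0.25 without WT 1 and by -0.18 with array weights. Acacb had a narrow range, from 5.31 in HET 2 to 6.50 in WT 1, near the array medians. Its means were 5.94 ± 0.33 in HOM, 5.87 ± 0.34 in HET and 5.82 ± 0.40 in WT, and each of its differences changed sign when 1 tumor was left out.

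Fasn, the multifunctional synthase that makes palmitate, had similar means in the 3 genotypes. Its level was 10.84, 10.77, 11.16, 11.08 and 9.89 in HOM 1 to HOM 5, 11, 11.37, 11.13, 10.66 and 10.31 in HET 1 to HET 5, and 12.15, 11.02, 9.79, 11.12 and 10.87 in WT 1 to WT 5. The highest and the lowest tumor were both WT. Means were 10.75 ± 0.51 in HOM, 10.90 ± 0.41 in HET and 10.99 ± 0.84 in WT. HET differed from WT by -0.10 (interval -0.87 to 0.68, adjusted p = 0.929) and HOM from WT by -0.24 (interval -1.02 to 0.53), and both differences were positive without WT 1, at 0.19 and 0.0456. HOM differed from HET by -0.15 (interval -0.93 to 0.63), and by 0.0673 without HOM 5.

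Elovl6 extends palmitate to stearate, and Scd1 introduces the double bond that gives oleate and palmitoleate. Elovl6 lay between 10.20 and 10.83 in HOM, between 10.06 and 11.67 in HET and between 9.69 and 10.90 in WT, with HET 3 the highest and WT 3 the lowest of all tumors. It was one of 2 genes with a higher mean in HET than in WT, by 0.35 (interval -0.24 to 0.95, adjusted p = 0.586). This difference was 0.15 without HET 3, the tumor with muscle markers, and 0.15 without WT 3, against 0.55 without HET 4 and 0.59 with the pan-leukocyte covariate. Scd1 was 12.49, 11.90, 12.38, 12.61 and 12.47 in HOM 1 to HOM 5, 10.94, 12.68, 12.51, 11.61 and 12.05 in HET 1 to HET 5, and 12.68, 11.79, 12.77, 12.65 and 11.59 in WT 1 to WT 5. HET 1 stood lowest, and the other tumors of the 3 genotypes overlapped. HET differed from WT by -0.34 (interval -1.03 to 0.35), by -0.0860 without HET 1, -0.52 without HET 2 and -0.22 without WT 3. With WT 5 and HOM 5 left out it was -0.52, with array weights -0.0392, with the epithelial covariate -0.0523 and with the pan-leukocyte covariate -0.15. HOM and WT differed by 0.07 (interval -0.62 to 0.76), and by -0.13 without WT 5 and HOM 5.

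Over the 9 genes, 7 had a lower and 2 a higher mean in HET than in WT, with a median log2 difference of -0.65, against -0.03 over all tested genes, of which 54.5% had a lower and 45.5% a higher mean. By limma 0 of the 9 passed, against 2 of 14243 tested genes (0.014%). At an unadjusted p under 0.05 there were 3 of the 9, Srebf1, Me1 and Acaca, all lower in HET, against 13.4% of tested genes in either direction and 8.38% lower at that level. In HOM against WT 6 genes had a lower and 3 a higher mean, the median difference was -0.13 against -0.01 over all tested genes, and 52.8% of tested genes had a lower and 47.2% a higher mean. There 0 of the 9 passed, with 0 at an unadjusted p under 0.05 (1.7% of all tested genes, 1.16% lower and 0.541% higher). In 0 of the 9 was every HOM tumor above or below every WT tumor (0.112% and 0.169% of tested genes). In HOM against HET 7 had a higher and 2 a lower mean, with a median of 0.22 against 0.01 over all tested genes, of which 52.4% had a higher and 47.6% a lower mean. Again 0 passed, and 2 of the 9, Srebf1 and Me1, were higher in HOM at an unadjusted p under 0.05 (7.93% of tested genes in either direction, 4.82% higher and 3.11% lower). Marker lists also had different means there. All 18 epithelial and all 12 milk secretion markers were higher in HOM than in HET, by medians of 0.77 and 0.99, and 11 of 12 pan-leukocyte markers were lower, with a median of -0.43. HET 1 had by far the lowest epithelial list mean, at 7.70. This mean was 10.68 in HOM and 9.90 in HET, but 10.45 in HET without HET 1, a comparison added after seeing the data. With the epithelial mean as a covariate Srebf1 and Me1 differed between HOM and HET by 0.79 and 0.82, and with the pan-leukocyte mean by 0.70 and 0.89. Because these means also differed between HOM and HET, such fits cannot tell genotype and cell content apart. The part of the milk secretion markers was not tested. The comparisons share tumors, and the adjusted calls over all genes were 0 in HOM against WT and in HOM against HET, so counts of the genes by direction describe these tumors only.

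**Figure D2:**
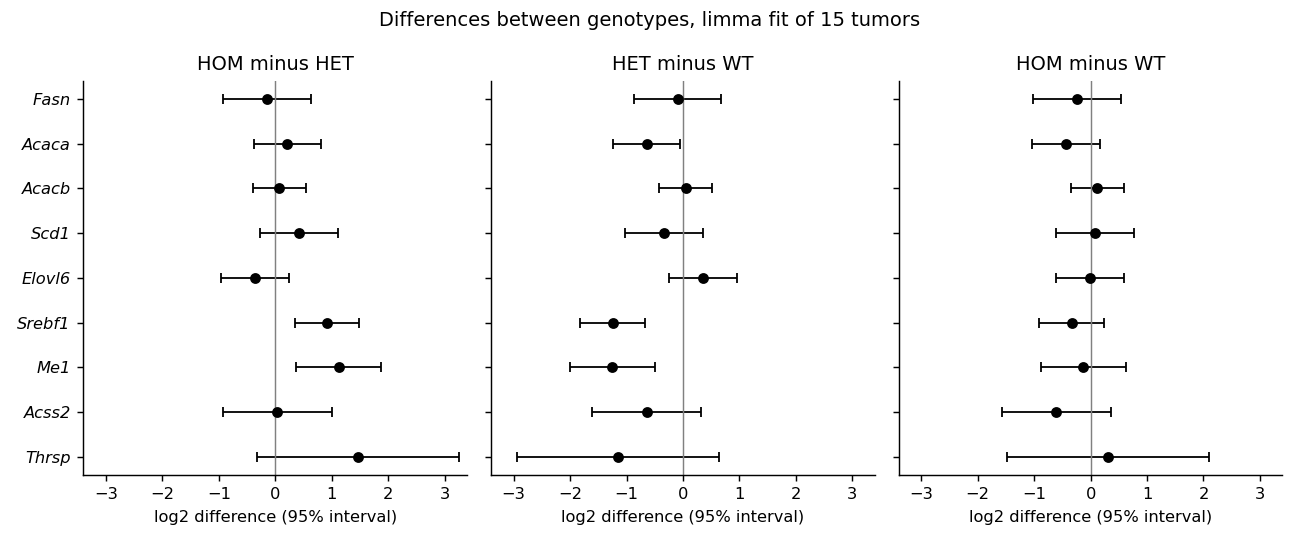
Log2 difference between genotypes with its 95% interval (horizontal axis) for the 9 genes, from the limma fit of 15 tumors, as HOM minus HET, HET minus WT and HOM minus WT. The Srebf1 and Me1 intervals lie above 0 in HOM minus HET, those of Srebf1, Me1 and Acaca lie below 0 in HET minus WT, and all 9 intervals in HOM minus WT include 0.

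Single tumors stood out across the genes. WT 1 was above the 15-tumor mean in all 9 genes and the highest of all tumors in 5 of them (Fasn, Acaca, Acacb, Srebf1 and Thrsp). HET 1 and HET 4 were each among the lowest 3 tumors in 5 of the 9 genes. HET 3 was above the mean in 8 genes, Srebf1 being the exception. HOM 3 was above the mean in 8 genes, while HOM 5, HET 2, HET 5 and WT 3 were each among the lowest 3 tumors in 3. WT 1 also had the lowest Erbb2 level (9.63), the lowest mean of pan-leukocyte markers (7.88, against 8.38 to 10.14 in the other tumors) and the highest mean of milk secretion markers (11.55). The part of these features in the WT 1 values was not tested.

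**Figure D3:**
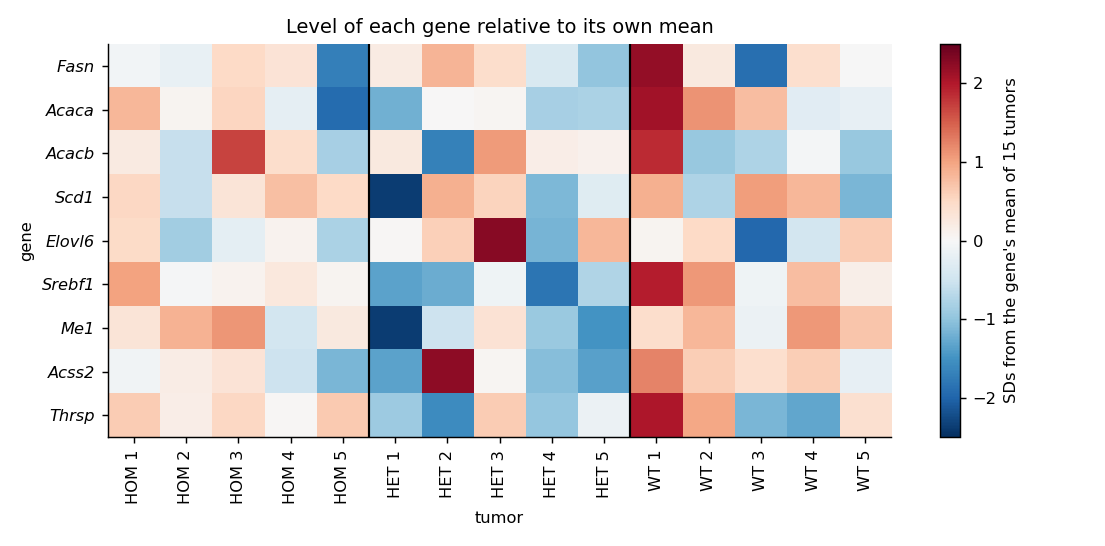
Level of each of the 9 genes (rows) in each tumor (columns, HOM, HET and WT from left to right), as the number of SDs from the gene's own mean over 15 tumors. WT 1 is above the mean throughout, and HET 1, HET 4, HET 5 and WT 3 are above it in at most 3 of the 9 genes.

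The genes varied together only loosely. Pearson's r over 15 tumors was positive in most of the 36 pairs, with a median of 0.36, and 0 pairs passed after adjustment over the 36 pairs (two-sided permutation test, 7 pairs at an unadjusted p under 0.05). The highest value joined Srebf1 and Thrsp (r = 0.71, Spearman's rho = 0.59, permutation p = 0.00319 and 0.0235, adjusted p = 0.0521 and 0.141). It was 0.50 without the tumors farthest from the median of Thrsp, HET 2 and WT 1, and 0.73 on deviations from genotype means. Srebf1 and Me1 followed (r = 0.68, rho = 0.65, permutation p = 0.00474 and 0.00979, adjusted p = 0.0521 and 0.141), but their r was 0.27 on deviations from genotype means. Acaca correlated with Acss2 and with Srebf1 at r = 0.68 and 0.67 (adjusted permutation p = 0.0521 each). Fasn and Acaca, consecutive enzymes of the pathway, had r = 0.54, which was -0.0531 without HOM 5 and WT 1. Elovl6 and Scd1 had r = -0.0236. Elovl6 and Srebf1 had r = 0.11 over the 15 tumors but 0.71 on deviations from genotype means, and Elovl6 with Thrsp and with Me1 had 0.34 and -0.0096 over tumors and 0.60 and 0.41 on deviations. Without HET 2 or without WT 3, 6 pairs passed in each case. The pair Acaca and Srebf1 passed without HOM 5, also when WT 5 was left out with it, and Srebf1 and Thrsp passed without WT 4.

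**Figure D4:**
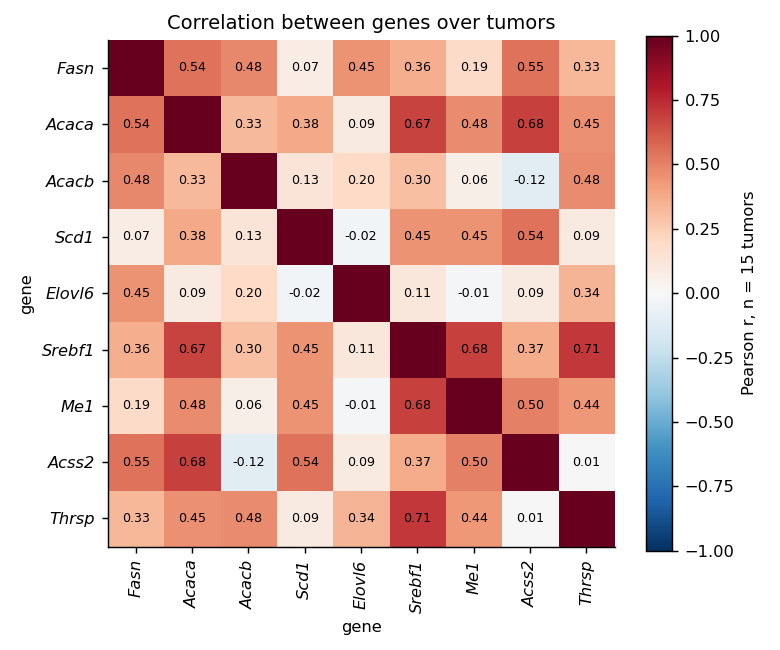
Pearson's r over 15 tumors for each pair of the 9 genes (colour scale from -1 to 1). Srebf1 with Thrsp, Me1 and Acaca, and Acaca with Acss2, reach 0.67 to 0.71, and Elovl6 is near 0 with Acaca, Scd1, Me1, Acss2 and Srebf1 when genotype means are not removed.

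Srebf1 was lower in tumors with more Erbb2 transcript. Erbb2 was 10.52, 12.36, 10.56, 12.83 and 11.39 in HOM 1 to HOM 5, 12.92, 12.78, 12.52, 12.39 and 12.89 in HET 1 to HET 5, and 9.63, 11.001, 11.60, 11.47 and 11.85 in WT 1 to WT 5. Pearson's r with Srebf1 was -0.79 and Spearman's rho -0.75 over 15 tumors (two-sided permutation p = 0.00036 and 0.00202). After adjustment over the 54 relations of the 9 genes to Erbb2, Acly, cholesterol synthesis genes and 3 cell type marker means, these were 0.0194 and 0.0545. It was the 1 relation of the 54 that passed by Pearson's r, and 0 passed by Spearman's rho, against 14 and 10 at an unadjusted p under 0.05. Without HOM 1 and WT 1, the tumors farthest from the median of Erbb2, r was -0.63. On deviations from genotype means r was -0.55 (permutation p = 0.0331, adjusted p = 0.129), so part of the relation lay between genotypes. These p-values are too small, because the permutation did not allow for the genotype means taken out. Single genotypes hold too few tumors for a value of their own. Without WT 1 r was -0.69 (adjusted permutation p = 0.115), and the call also ended without HET 1, HET 2 or HOM 1 (adjusted p = 0.0599, 0.0535 and 0.0589). Without WT 5 and HOM 5 it held, at r = -0.79 (adjusted permutation p = 0.0321).

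**Figure D5:**
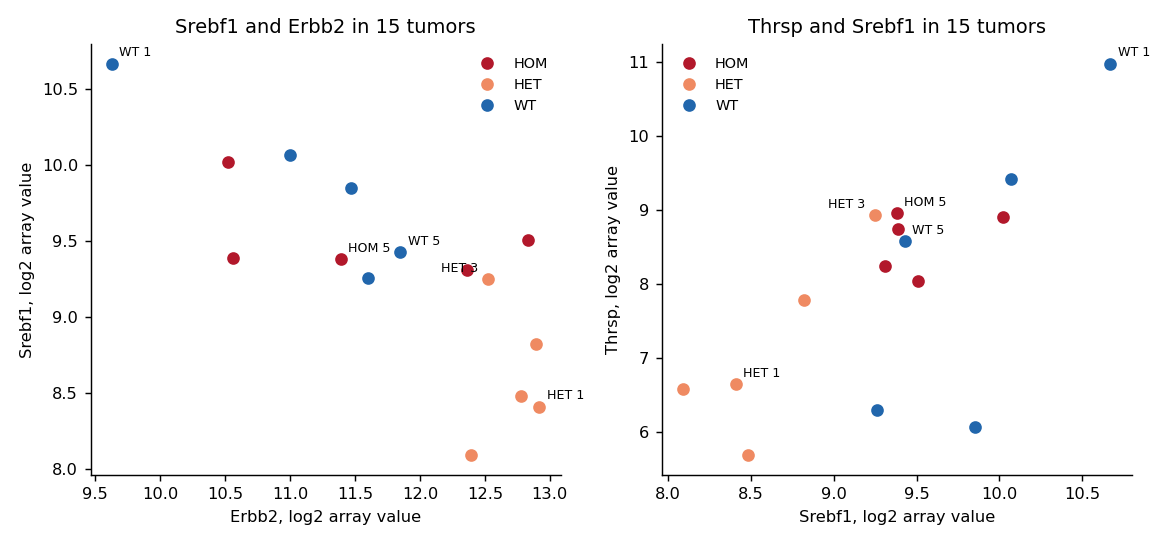
Log2 array values of Srebf1 against Erbb2 (left) and of Thrsp against Srebf1 (right) in 15 tumors, coloured by HOM, HET and WT genotype. WT 1 lies at the lowest Erbb2 and the highest Srebf1 and Thrsp, and the HET tumors lie at high Erbb2 and low Srebf1.

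Acaca, Thrsp and Me1 also had negative r with Erbb2, of -0.66, -0.63 and -0.62, which did not pass (adjusted permutation p = 0.0614, 0.0730 and 0.0730). Acaca with Erbb2 passed without HOM 5, at r = -0.85 (adjusted permutation p = 0.00702), and without WT 5 and HOM 5, at r = -0.86 (0.0119), where its r was larger in size than that of Srebf1. Without WT 1 it was -0.48 (adjusted permutation p = 0.356). Fasn (r = -0.30) and Elovl6 (r = 0.15) were the genes with the weakest relation. Erbb2, Acaca, Fasn, Srebf1 and Acly all lie on mouse chromosome 11, between position 60199084 at the end of Srebf1 and 120825166 at the start of Fasn on GRCm38.p6. Acaca (84129635 to 84401651) is the one of these members nearest to Erbb2 (98412484 to 98437716). The reference Acly (100476352 to 100528000) lies nearer to Erbb2 than Acaca. DNA copy number was not measured in these samples.

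Marker means of other cells differed between HET and WT tumors, though no marker passed the test. The mean of 12 pan-leukocyte markers was 9.46 ± 0.68 in HET (8.53 to 10.14) and 8.87 ± 0.60 in WT (7.88 to 9.44), with 11 of 12 markers at a higher mean in HET. The mean of 18 epithelial markers was 7.70 to 11.05 in HET and 9.96 to 10.89 in WT, with 17 of 18 at a lower mean in HET. HET 1 was the lowest, and without it the list mean was 10.45 in HET and 10.57 in WT, with 11 of 18 markers lower, a comparison added after seeing the data. HET 1 also had the highest mean of B and plasma cell markers, at 9.54, against at most 7.37 in any other tumor. All 9 genes had negative r with the pan-leukocyte mean. It was -0.72 for Srebf1, -0.69 for Thrsp and -0.68 for Me1 (adjusted permutation p = 0.0592 each), -0.64 for Acaca (0.0614) and weakest for Elovl6, at -0.29. Without WT 5 and HOM 5, Srebf1 and Thrsp passed, at r = -0.74 each (adjusted permutation p = 0.0435 each), and Me1 did not (0.0535). Srebf1 also passed without HET 3, HET 5, HOM 3, HOM 4 or HOM 5, Thrsp without HET 5, HOM 5 or WT 4, and Me1 without HET 5, with adjusted permutation p between 0.0184 and 0.0476. Without WT 1 r of Srebf1 was -0.60 (0.176). Scd1 had r = 0.70 with the epithelial mean (adjusted permutation p = 0.0614), which was 0.03 without HET 1 and HET 4. This relation passed without WT 5 and HOM 5 and without HET 5. Me1 had r = 0.64 with the epithelial mean (adjusted permutation p = 0.0930), which was -0.16 without HET 1 and HET 4. The Me1 relation passed without HET 5. With the pan-leukocyte mean as a covariate, a fit added after seeing the data, Srebf1 differed between HET and WT by -0.93, Me1 by -0.90 and Acaca by -0.38 (adjusted p = 0.496, 0.564 and 0.726). With the epithelial mean as a covariate these were -1.14, -0.99 and -0.54, and Acaca was no longer under an unadjusted p of 0.05 in either fit.

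Fat cell markers varied between tumors and had low correlations with these genes. The mean of 15 adipocyte markers was 6.54 to 9.04 in HOM, 6.08 to 8.34 in HET and 6.80 to 7.26 in WT, with HOM 4 the highest. Adipoq, a hormone of fat cells, was 7.86 in HOM 4 and Plin1, which coats their lipid droplets, was 8.35. Pearson's r of the 9 genes with the adipocyte mean lay between -0.0978 for Srebf1 and 0.18 for Fasn, and with it as a covariate Srebf1 differed between HET and WT by -1.25.

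Of 126 other genes in 7 lists of lipid metabolism, 108 were tested and 0 passed in any of the 3 comparisons. In HET against WT 13 of the 108 were lower and 5 of the 108 higher at an unadjusted p under 0.05, against 8.38% and 4.99% of all tested genes. The median difference of the 108 was -0.07. Other elongases, desaturases and their partners (15 tested, 10 lower, median -0.11) included Scd3, a close relative of Scd1, at 6.82 ± 0.38 in HET and 7.58 ± 0.75 in WT, and the dehydratase Hacd2 at 11.71 ± 0.042 and 11.46 ± 0.24. Genes that supply acetyl-CoA and NADPH (17 tested, 12 lower, median -0.16) included Me2, the mitochondrial malic enzyme, at 9.54 ± 0.70 in HET and 8.75 ± 0.26 in WT, a higher mean where Me1 had a lower one. Mlycd, which degrades malonyl-CoA, was 6.67 ± 0.25 in HET and 7.31 ± 0.57 in WT. Slc25a1, the citrate carrier, was 10.21 ± 0.065 in HOM and 10.53 ± 0.13 in WT.

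Regulators of lipogenesis other than Srebf1 were evenly split (19 tested, 10 higher and 9 lower in HET, median 0.0017). Mid1ip1, a relative of Thrsp, was 8.65 ± 0.34 in HET and 8.27 ± 0.33 in WT. Cholesterol synthesis genes, targets mainly of SREBP-2, had 11 of 16 at a higher mean in HET and a median of 0.07, with Msmo1 at 9.19 ± 0.58 in HET and 8.57 ± 0.47 in WT. Over tumors, their mean had r = 0.68 with Acss2, 0.59 with Fasn and 0.56 with Elovl6, and 0.10 with Srebf1, and none of these passed (adjusted permutation p = 0.0592, 0.0971, 0.131 and 0.881).

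Triglyceride synthesis genes (15 tested, 8 lower, median -0.04) held the lowest p of the 7 lists. Gpat3, an acyltransferase of the first step, was 7.44, 7.49, 6.29, 7.23 and 6.23 in HET 1 to HET 5, against 5.53, 5.74, 6.01, 5.61 and 6.03 in WT 1 to WT 5. All HET tumors were above all WT tumors, as in 0.534% of tested genes, by 1.15 on the log2 scale (interval 0.63 to 1.67, adjusted p = 0.206). It passed without HET 3 and without HET 5, and its adjusted p lay between 0.0405 and 0.496 over the 27 settings. Gpat3 values in WT tumors lay near the array medians, so the size of this difference is limited by signal over background. Dgat2, of the last step, was 8.56 ± 1.32 in HET tumors and 7.20 ± 0.39 in WT tumors (adjusted p = 0.299), and Plin3, a lipid droplet protein, was 9.57 ± 0.36 and 10.21 ± 0.31 (adjusted p = 0.238). Uptake and activation genes (12 tested, 9 lower, median -0.36) included the acyl-CoA synthetase Acsl4 at 10.98 ± 0.79 in HET and 12.01 ± 0.44 in WT, and the monoglyceride lipase Mgll at 8.02 ± 1.24 and 9.35 ± 0.79. Fatty acid oxidation genes (14 tested, 11 lower, median -0.36) included Echs1 at 9.42 ± 0.28 and 9.997 ± 0.32 and Acads at 9.61 ± 0.29 and 10.02 ± 0.30. In HOM against WT the list medians lay between -0.12 and 0.07.

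Among all 14234 tested genes outside the list, those most like Fasn over 15 tumors by Pearson's r were Rnf145, a ubiquitin ligase of the endoplasmic reticulum (r = 0.91), Tysnd1, a peroxisomal protease (0.83), Net1 (0.83), Defb36 (0.82) and Ppm1d (0.80). Rnf145 was 9.97, 9.71, 10.11, 9.81 and 9.31 in HOM 1 to HOM 5, 9.71, 9.94, 9.84, 9.62 and 9.44 in HET 1 to HET 5, and 10.43, 9.78, 9.39, 9.71 and 9.90 in WT 1 to WT 5, with WT 1 highest as for Fasn. Most like Srebf1 were Lmf1, which matures lipoprotein lipase in the endoplasmic reticulum (r = 0.96), Rnf43 (0.93), Slc38a3, a glutamine transporter (0.92), Amt (0.90) and Twnk (0.90). Lmf1 was 9.89 ± 0.32 in HET and 10.67 ± 0.33 in WT, with an adjusted p of 0.206 in limma. Npnt, an extracellular matrix protein, had the highest r with Thrsp (0.88), followed by Lyplal1, Lrrc3, Mogs and Noa1 (0.87 to 0.88). The nearest member of the list itself was ranked 685 of all genes for Fasn (Acss2), 556 for Srebf1 (Thrsp) and 294 for Thrsp (Srebf1). These values are descriptions, chosen as the highest of many.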

How the data were processed

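Total RNA of 15 mammary tumors was measured on Affymetrix whole-transcript arrays, per the labels' protocols. The authors deposited log2 values for 41345 transcript clusters, and Expression Console and Transcriptome Analysis Console from Affymetrix were used, per the submitters' processing notes. Their versions and the background correction and normalization were not given in the sources used here. That values are on a log2 scale was read from their range, which ran from 1.06 to 13.9. No scanner files were used, so there were no detection calls, and precision is limited by the number of arrays.

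Of the clusters, 23521 list 1 gene symbol in the platform annotation, 1814 several and 16010 were unnamed here; 23328 matched RefSeq (GRCm38.p6) by Entrez ID, and 0 symbols changed. The brightest cluster by mean was kept per gene.

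One limma model (version 3.58.1, R 4.3.3) held the 15 tumors of HOM, HET and WT (lmFit and eBayes, two-sided, Benjamini-Hochberg over 14243 genes, threshold 0.05). On simulated data for HET against WT with 14243 genes, 67 of 100 genes changed by 1 and 89 of 100 changed by 2 on the log2 scale were recovered, with 15 false calls. These counts describe the simulated data only. The share of true differences that the model finds in the real tumors was not tested. Correlations used 100000 permutations. With Scd2 left out, 36 pairs and 54 relations remained. Named besides the 9 genes and references were, per lipid list, the 2 genes with the smallest p in HET and in HOM against WT (only some are described), and the 5 genes most like Fasn, Srebf1 and Thrsp. Alternatives are given in the closing section. The members and lists were chosen with earlier results of these data known.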

Additional observations from a re-analysis of the deposited data

Results flagged for a closer look

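In 2 of 33 sets of 5 tumors (11 genes in 3 genotypes) a single tumor stood apart from the other 4 by Dixon's test, and chance gives about 1 in 20. Srebf1 was 10.02 in HOM 1, against 9.31 to 9.51 in the other HOM tumors. Acly was 10.42 in HOM 5, against 12.85 to 13.44 in the other HOM tumors. HOM 5 is also the tumor whose Ctnnb1 level goes against its label.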

How the results depend on the processing

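No paired analysis was possible because the tumors carry no number shared between genotypes. The 33 differences of the 9 genes, Erbb2 and Acly were recomputed under 12 settings and with each of the 15 tumors left out, except that Acacb has no value with the filter at the 75th percentile, which it does not pass. Direction and side of the threshold stayed in 377 values and turned in 16 under the 12 settings, and with a tumor left out they stayed in 468, while 26 changed sign and 1 newly passed (Srebf1, HET against WT without HET 3, -1.41). The cause of these changes was not tested. In HET against WT, Fasn was 0.15 with array weights and 0.20 with the pan-leukocyte covariate, and Acacb -0.0148 without WT 5 and HOM 5 and -0.10 without HET 1 and HET 3. In HOM against WT, Fasn was 0.0442 with array weights, Scd1 -0.13 without WT 5 and HOM 5, and Elovl6 0.0132 after a renewed quantile normalization, 0.0582 with array weights, 0.0726 with the pan-leukocyte covariate and 0.15 without WT 5 and HOM 5. In HOM against HET, Fasn was 0.0673 without WT 5 and HOM 5, Acacb -0.0744 with the pan-leukocyte covariate, and Acss2 -0.28 with array weights, -0.22 with the epithelial covariate, -0.14 with the pan-leukocyte covariate and -0.14 without HET 1 and HET 3. With 1 tumor left out, HET against WT ranged from -0.40 to 0.19 for Fasn, -0.0400 to 0.22 for Acacb and -1.41 to -1.05 for Srebf1. HOM against WT ranged from -0.54 to 0.0456 for Fasn, -0.0081 to 0.29 for Acacb, -0.10 to 0.19 for Scd1, -0.21 to 0.0926 for Elovl6, -0.28 to 0.0442 for Me1 and -0.24 to 0.99 for Thrsp. HOM against HET ranged from -0.29 to 0.0673 for Fasn, -0.0707 to 0.16 for Acacb and -0.17 to 0.53 for Acss2.

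Of all tested genes, 2 passed in HET against WT. The count was 0 with the filter at the 75th percentile and with array weights, 1 after a renewed quantile normalization, with only the 2 genotypes compared and with the adipocyte or epithelial covariate, 10 without HET 1 and HET 3, and 1 to 48 with a tumor left out, highest without HET 3. It was 4 in HOM against WT and 6 in HOM against HET without WT 5 and HOM 5, 1 in HOM against HET without HET 1 and HET 3, and 0 to 3 there with a tumor left out. Of the 9 genes, 0 or 1 passed in HET against WT with a tumor left out. Of the 36 pairs, 1 passed without WT 5 and HOM 5 and 0 to 6 with a tumor left out. Of the 54 relations, 5 passed without WT 5 and HOM 5, 0 with Spearman's rho or without HET 1 and HET 3, and 0 to 7 with a tumor left out, highest without HET 5. With deviations from genotype means the count was 1 again, but for Acss2 with cholesterol synthesis genes. The permutation of deviations did not allow for the genotype means taken out, so its p-values are too small and this call is uncertain. Values near the array medians, such as those of Acacb, are limited by signal over background.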
